A study of Mus musculus with 12 samples.

Results

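Cytochrome P450 genes encode heme enzymes that add oxygen to fatty acids, steroids, vitamins and drugs. They were taken here as all probe sets of the array whose only gene symbol is a numbered Cyp name with a family, a subfamily letter and a gene number, which leaves out Cyp51. The rule found 85 probe sets for 85 genes, of 19938 genes tested in all. They fell into families as 44 genes of Cyp2, 16 of Cyp4, 6 of Cyp3, 3 of Cyp1, 3 of Cyp26, 2 of Cyp27, 5 of Cyp7, Cyp8, Cyp39 and Cyp46, 5 of Cyp11, Cyp17 and Cyp21, and Cyp20a1. Cyp24a1 is not analysed here.

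RNA of whole kidney from mice aged 3 weeks was hybridised to 12 Affymetrix whole-transcript arrays in 4 groups of 3. PpargΔ/Δ mice lack PPARγ, the nuclear receptor needed for fat cell formation, and their controls shared the mixed C57BL6/SV129 strain. AZIP mice and FVB control mice were both of the FVB strain. By background knowledge AZIP mice carry the A-ZIP/F-1 transgene, in which a fat-cell promoter drives a protein that blocks C/EBP factors, so that little fat forms. Each array held RNA pooled from 3 mice. The labels give neither sex nor littermates, nor which part of Pparg was removed, nor whether the PpargΔ/Δ control carries a floxed or wild-type allele. Replicate spread is therefore the spread between pools, and 3 pools a group limit the precision of every value.

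In the kidney most P450 protein lies in the proximal tubule. There Cyp4a enzymes hydroxylate the far end of fatty acids, including arachidonic acid, and are well-known targets of the fasting receptor PPARα. Cyp2c and Cyp2j enzymes can turn arachidonic acid into epoxides that act on salt transport and vessel tone. Cyp27b1 makes the active hormone form of vitamin D, and Cyp2e1 oxidises ethanol, acetone and other small molecules.

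Values are log2 signals, so a difference of 1 is a doubling. Levels of different probe sets were not compared, since probes differ in brightness. Array medians lay between 7.17 and 7.21, and the mean over the 85 P450 genes was 6.48 to 6.52 on PpargΔ/Δ arrays, 6.51 to 6.56 on their controls, 6.44 to 6.46 on AZIP arrays and 6.44 to 6.48 on FVB controls. The Pparg probe set read 8.0, 8.19 and 8.01 on PpargΔ/Δ arrays and 7.90, 7.97 and 8.02 on controls (difference 0.11, limma adjusted p = 0.339), so it did not check the genotype. The proximal tubule gene Slc34a1 read 13.12 to 13.24 on all 12 arrays. Most other markers of that segment differed below 0 in both mutants, and their values are given after the P450 families. Of the 85 P450 genes 46 lay under percentile 25 of mean signal over all genes, where a probe set may carry mostly background.

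In PpargΔ/Δ kidney 10 of 85 P450 genes passed an adjusted p under 0.05, against 5.29% of all genes tested. The share among P450 genes was 11.8%, with 4 genes higher (2.67% of all genes were) and 6 lower (2.62%). The 6 that fell were Cyp2e1, Cyp2c23, Cyp4a31, Cyp4a10, Cyp4a14 and Cyp2j11, and the 4 that rose were Cyp2j13, Cyp17a1, Cyp1b1 and Cyp20a1. At an unadjusted p under 0.05 there were 20, and the background at that level was 20.4% of genes. The P450 median difference was -0.050, beside -0.009 over all genes. Groups did not overlap for 22 P450 genes (25.9%), beside 26.1% of all genes. Over all 85 the count of separated genes was thus near the background. Among genes at or over percentile 25 of mean signal, 41% of P450 genes were separate, beside 30.7% of all genes there. At or over percentile 50 these shares were 54.5% and 34.5%, and the shares called were 36.4% and 7.51%. The count of calls depended on which arrays were kept. It was 3 without PpargΔ/Δ array 2, 4 without PpargΔ/Δ array 3, 3 without control array 1 and 6 without control array 2. Under these settings the share of all genes called also fell, to 2.42%, 2.44%, 1.66% and 2.32%. The P450 genes at an unadjusted p under 0.05 then numbered 23, 18, 23 and 19. Cyp2c23, Cyp2e1 and Cyp2j13 kept the call with each of the 6 arrays left out in turn, and the other 7 lost it at least once.

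**Figure D1:**
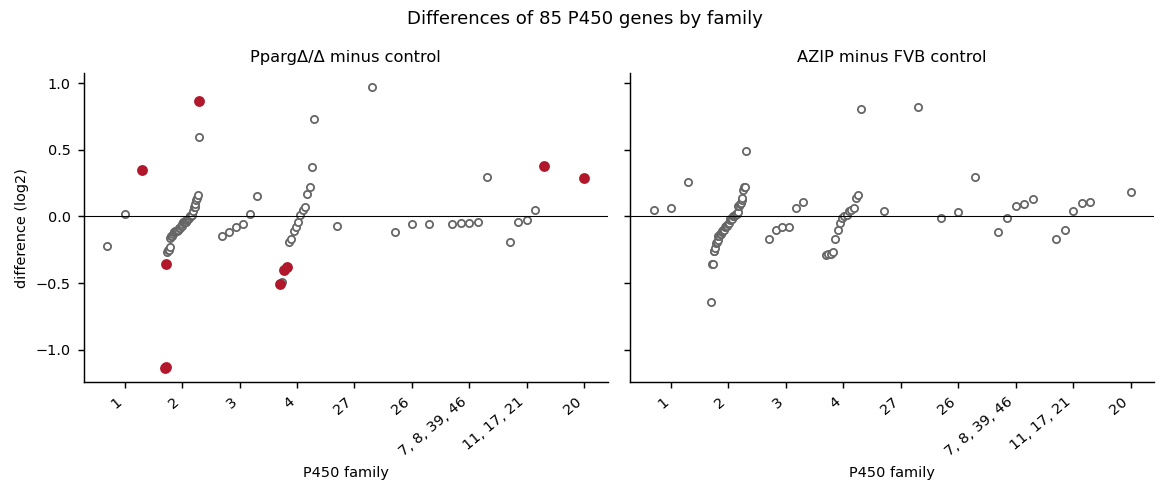
Difference in log2 signal of each of the 85 P450 genes, by family, for PpargΔ/Δ minus control on the left and AZIP minus FVB control on the right; filled points passed an adjusted p under 0.05. The 10 filled points are all on the left, from -1.14 for Cyp2e1 to 0.87 for Cyp2j13, and the unfilled point at 0.97 is Cyp27b1.

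Cyp2e1 showed the largest fall of the P450 genes. It read 11.29, 11.18 and 11.09 on PpargΔ/Δ arrays and 12.30, 12.36 and 12.33 on their controls. Every PpargΔ/Δ pool was below every control pool by more than the spread within either group. The difference was -1.14 ± 0.16 (SE; 95% interval -1.48 to -0.80), which is 45.3% of the control signal (limma adjusted p = 0.00284). Cyp2e1 had a TATAAA box 31 bases before its start, printed in capitals in the promoter from RefSeq (GRCm38.p6, chr7:140763569-140763818, plus strand, ending at the base before the start). It is shown because none of the other 4 called genes with a promoter sequence here held that box.
Cyp2e1: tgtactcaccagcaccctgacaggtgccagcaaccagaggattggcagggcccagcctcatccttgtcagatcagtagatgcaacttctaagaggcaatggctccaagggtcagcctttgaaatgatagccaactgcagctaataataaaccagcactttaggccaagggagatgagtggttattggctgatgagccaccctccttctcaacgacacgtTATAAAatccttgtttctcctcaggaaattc

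Cyp2c23, an arachidonic acid epoxygenase of the kidney, fell by about the same amount. It read 9.89, 9.41 and 9.69 on PpargΔ/Δ arrays and 10.65, 10.80 and 10.90 on controls. The groups were far apart, with the lowest PpargΔ/Δ value in array 2. The difference was -1.13 ± 0.12 (95% interval -1.38 to -0.87), or 45.8% of control (limma adjusted p = 0.000742). The other 12 Cyp2c genes did not pass, and the 13 had a median difference of -0.036. Cyp2c23 was thus the sole Cyp2c gene past the threshold, though differences between it and the others were not tested. Of those others only Cyp2c37 and Cyp2c66 reached percentile 25 of mean signal. The rest may read mostly background, so the median says little about them.

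Of the 5 Cyp4a genes measured, 3 fell. Cyp4a31 read 11.80, 11.77 and 11.84 on PpargΔ/Δ arrays and 12.46, 12.18 and 12.28 on controls, a difference of -0.51 ± 0.10 or 70.4% of control (limma adjusted p = 0.0188). Cyp4a10 read 11.47, 11.56 and 11.55 against 12.01, 11.91 and 11.85, a difference of -0.40 ± 0.09 or 75.9% of control (limma adjusted p = 0.0307). Cyp4a14 read 12.25, 12.34 and 12.33 against 12.76, 12.72 and 12.58, a difference of -0.38 ± 0.09 or 76.7% of control (limma adjusted p = 0.0315). In all 3 genes the PpargΔ/Δ arrays lay close together and below every control array. These calls were not firm. Cyp4a10 lost its call without any 1 of the 6 arrays, Cyp4a14 without any but control array 3, and Cyp4a31 without PpargΔ/Δ array 2 or 3 or control array 1, with adjusted p up to 0.115, 0.115 and 0.0805. The 3 genes lie near each other on chromosome 4 in the RefSeq gene order and are close copies, so each probe set may in part read its neighbours, and they are not 3 independent measurements.

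The other pair of the subfamily, Cyp4a12a and Cyp4a12b, did not fall. Cyp4a12b, a close copy of the main arachidonic acid hydroxylase of mouse kidney, read 7.83, 7.51 and 7.43 on PpargΔ/Δ arrays and 7.03, 6.69 and 6.86 on controls. Its groups did not overlap, but the difference of 0.73 ± 0.24 missed the threshold (limma adjusted p = 0.106). Cyp4a12a differed by 0.37 ± 0.21 (limma adjusted p = 0.37). The Cyp4a differences thus ran from -0.51 to 0.73 within 1 subfamily, with a median of -0.383. The Cyp4f genes, whose enzymes hydroxylate leukotrienes and long fatty acids, gave no call in 9 genes, with a median of 0.007 and a range of -0.17 to 0.22. All but Cyp4f13, Cyp4f16 and Cyp4f41-ps lay under percentile 25, where a probe set may carry mostly background.

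Cyp2j genes went both ways. Cyp2j11 read 11.32, 11.23 and 11.10 on PpargΔ/Δ arrays and 11.63, 11.55 and 11.54 on controls. The difference was -0.36 ± 0.09, or 78.1% of control (limma adjusted p = 0.0396), and was lost without any array but PpargΔ/Δ array 1, with adjusted p up to 0.131. Cyp2j13 read 6.28, 6.43 and 6.51 against 5.51, 5.45 and 5.67. All PpargΔ/Δ pools were above all control pools, and the difference was 0.87 ± 0.16, a measured ratio of 1.83 (limma adjusted p = 0.0107). Cyp2j13 is among the 46 dim genes under percentile 25, so part of its signal may be background and the ratio of RNA levels is uncertain. Settings that filter dim genes leave it out. The rest of the subfamily moved little: Cyp2j5, a renal epoxygenase, differed by -0.11 ± 0.04 (limma adjusted p = 0.138), Cyp2j6 by -0.06, Cyp2j9 by 0.04 and Cyp2j12 by -0.10.

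Cyp2j11 and Cyp2j13 stand in 1 cluster on chromosome 4, with Cyp2j12 and pseudogenes between them in the RefSeq order. Their promoters are shown because they are neighbours with opposite changes (RefSeq, GRCm38.p6, both on the minus strand, 250 bases up to the start). Cyp2j11 is at chr4:96348681-96348930 and Cyp2j13 at chr4:96077541-96077790. Capitals mark GCGTG, the core of the dioxin response element, which lies 68 bases before the start of Cyp2j13 and was not matched in Cyp2j11. A match is only a run of letters and shows no binding.
Cyp2j11: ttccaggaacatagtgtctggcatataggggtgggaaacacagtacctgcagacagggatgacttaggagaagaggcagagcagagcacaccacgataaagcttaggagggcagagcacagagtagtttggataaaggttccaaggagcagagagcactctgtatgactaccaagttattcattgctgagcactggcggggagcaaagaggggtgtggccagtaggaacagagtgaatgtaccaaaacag
Cyp2j13: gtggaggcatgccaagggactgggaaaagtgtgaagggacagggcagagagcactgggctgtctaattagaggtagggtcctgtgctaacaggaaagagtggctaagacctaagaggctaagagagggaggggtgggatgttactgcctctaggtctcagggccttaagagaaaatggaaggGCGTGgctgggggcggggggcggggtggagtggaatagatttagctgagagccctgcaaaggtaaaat

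Promoter windows of 250 bases before to 50 after the start were found in RefSeq for 62 of the 85 P450 genes and for 5 of the 10 called genes. Letters were searched on both strands. TATAAA stood in 25 of the 62 windows (40.3%), beside 15.7% of 27025 genes, and AGGTCA, a site bound by many nuclear receptors, in 16 (25.8%, beside 18.1%). The PPAR direct repeat, which is AGGTCA repeated in the same orientation after 1 base of any kind and so overlaps the former motif, was in 0 of 62, beside 0.0481% of all genes. GCGTG was in 14 of 62 (22.6%, beside 35.2%), among them the called genes Cyp1b1, Cyp20a1 and Cyp2j13. Also among them were Cyp2j12, Cyp2j9 and Cyp1a1, which were not called in PpargΔ/Δ kidney (-0.10, 0.04 and -0.22). TTATGTAA, the element of Dbp and Nfil3, was in 0 of 62 (1.11% of all genes), and GTTAAT, part of the HNF1 site, in 4 (6.45%, beside 8.24%). These windows are short, and no match says only that the letters are not in them.

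The other rises were small. Cyp1b1, an enzyme of vessel and stromal cells that acts on estrogens and aromatic hydrocarbons, read 9.74, 9.86 and 9.92 on PpargΔ/Δ arrays and 9.44, 9.43 and 9.58 on controls. The groups were separate, with a difference of 0.35 ± 0.08 (limma adjusted p = 0.0246), lost without PpargΔ/Δ array 2 or 3 or control array 1 or 2 (up to 0.0941). In the joint list of endothelial and vascular smooth muscle markers, 11 of 13 differed above 0 and 2 below, with a median of 0.149. The mean of the list was 9.97 to 10.07 on PpargΔ/Δ arrays and 9.70 to 9.81 on controls. The 3 genes called higher (23.1%, beside 2.67% of all genes) were the smooth muscle genes Acta2 by 0.88, Tagln by 0.63 and Cnn1 by 0.74. No endothelial gene of the list was called. The part of these markers in the Cyp1b1 difference was not tested.

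Cyp20a1, a P450 with no settled substrate, read 9.86, 9.92 and 9.86 on PpargΔ/Δ arrays and 9.53, 9.66 and 9.59 on controls. All PpargΔ/Δ pools were higher, by 0.29 ± 0.06 (limma adjusted p = 0.0165), a call lost without PpargΔ/Δ array 2 or control array 1 (up to 0.0736). Cyp17a1, which makes androgen precursors in adrenal and gonad, read 6.96, 6.96 and 6.84 against 6.43, 6.52 and 6.67. The difference was 0.38 ± 0.10 (limma adjusted p = 0.0419), lost without any array but control array 3 (up to 0.145). Adrenal cortex markers had a mean of 6.56 to 6.59 on PpargΔ/Δ arrays and 6.41 to 6.52 on controls. Of these 8 markers Mc2r, the corticotropin receptor, passed (0.42 ± 0.09, limma adjusted p = 0.0244, up to 0.0833 with an array left out), while Star differed by -0.01, and their part in the Cyp17a1 rise was not tested. That 1 call is 12.5% of the list, beside 5.29% of all genes. The other steroid enzymes did not pass, with Cyp11a1 at -0.19 (limma adjusted p = 0.0993), Cyp11b1 at -0.03, Cyp11b2 at -0.04 and Cyp21a1 at 0.05. All of these but Cyp11b2 lay under percentile 25, where a probe set may carry mostly background.

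**Figure D2:**
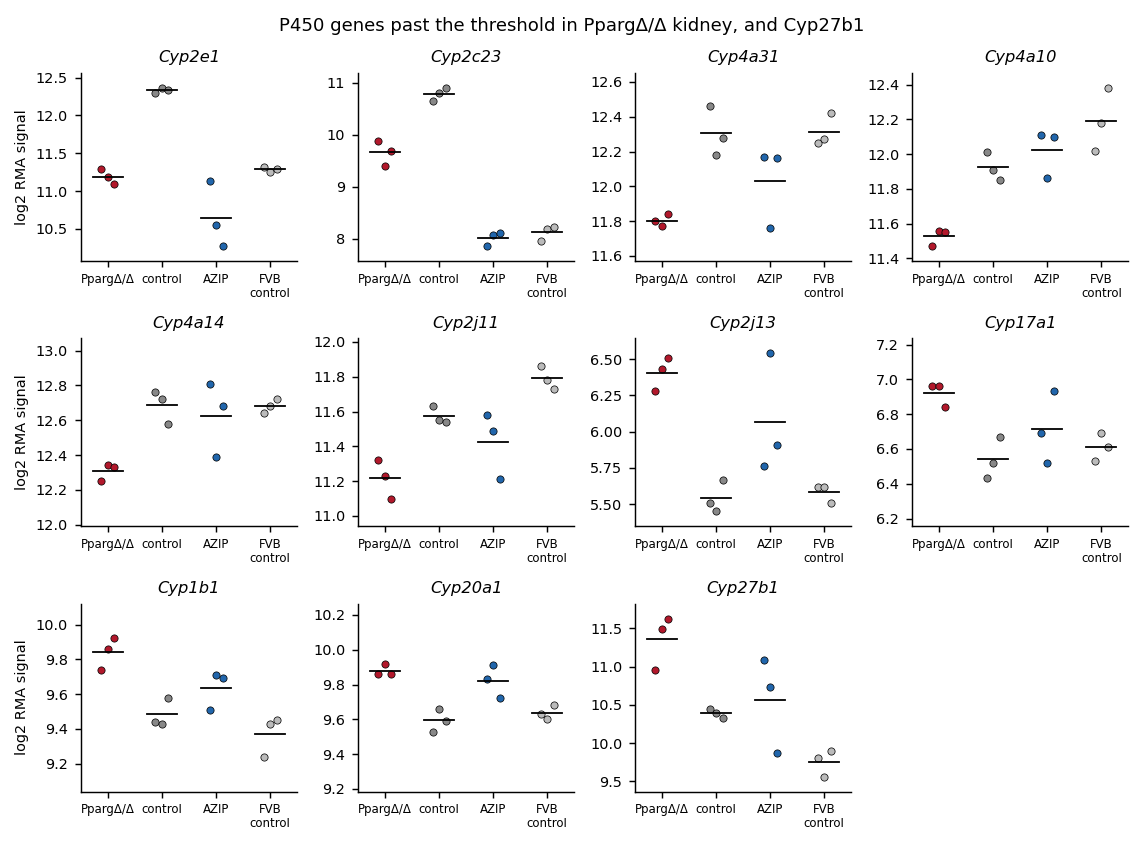
Log2 signal on each of the 12 arrays (points) with the group mean (line) for the 10 P450 genes past the threshold in PpargΔ/Δ kidney and for Cyp27b1. PpargΔ/Δ points lie apart from their control points in all 11 panels, and the FVB groups of Cyp2c23, at 7.86 to 8.24, lie far below the C57BL6/SV129 groups.

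Cyp27b1 had a higher mean in both mutants but varied between pools. It read 10.95, 11.49 and 11.63 on PpargΔ/Δ arrays and 10.45, 10.39 and 10.33 on controls. All 3 PpargΔ/Δ pools were above all control pools, yet the difference of 0.97 ± 0.25 (95% interval 0.41 to 1.52, 1.95-fold) stood at the threshold, at limma adjusted p = 0.0501. Without PpargΔ/Δ array 1 it was 1.17 and passed (0.0293), but with another array left out adjusted p rose as high as 0.158. In AZIP kidney it read 11.09, 10.74 and 9.87 against 9.81, 9.56 and 9.89, so array 3 overlapped the controls. That difference was 0.82 ± 0.25 (95% interval 0.26 to 1.37, limma adjusted p = 0.121) and 1.17 without AZIP array 3 (0.0184). With another array left out it fell as low as 0.56, with adjusted p up to 0.299. Cyp27a1, the sterol hydroxylase of mitochondria, differed by -0.07 and 0.04 in the same comparisons, and Cyp2r1, which makes the circulating form of vitamin D, by -0.25 (limma adjusted p = 0.483) and -0.26 (limma adjusted p = 0.553). The vitamin D receptor Vdr read 11.27, 10.96 and 10.93 on PpargΔ/Δ arrays and 11.45, 11.39 and 11.37 on controls, a difference of -0.35 ± 0.09 that missed the threshold (limma adjusted p = 0.055). It was -0.30 in AZIP kidney (limma adjusted p = 0.124). Of 18 vitamin D genes measured outside the P450 group, 0 passed in PpargΔ/Δ kidney (1 rose and 1 fell in AZIP kidney: S100g by 0.25 and Slc34a3, a phosphate carrier, by -0.53, at adjusted p = 0.0401 and 0.045, rising to 0.159 and 0.158 with an array left out). Over all genes 5.29% passed in PpargΔ/Δ kidney and 2.43% in AZIP kidney.

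Families of the retinoid, bile acid and drug pathways gave no call in PpargΔ/Δ kidney. The 3 Cyp26 enzymes, which break down retinoic acid, differed by -0.12 to -0.06. Of the sterol enzymes Cyp7b1 read 7.31, 7.19 and 7.18 against 6.94, 6.84 and 7.0 and missed the threshold at 0.30 ± 0.08 (limma adjusted p = 0.0575), while Cyp7a1, the first enzyme of bile acid synthesis in liver, differed by -0.05 and Cyp8b1 by -0.06. The 6 Cyp3 genes ran from -0.15 to 0.15, the 5 Cyp2b genes from -0.15 to 0.00 and the 10 Cyp2d genes from -0.12 to 0.60. The highest of these was Cyp2d12, at 7.33, 7.63 and 7.64 against 6.64, 7.59 and 6.58, where control array 2 lay among the PpargΔ/Δ arrays (limma adjusted p = 0.141). Cyp7a1, Cyp8b1, all the Cyp3 genes and all the Cyp2b genes but Cyp2b23 lay under percentile 25, so their small differences may reflect background signal.

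The proximal tubule list moved in the same direction as the P450 falls. Of its 27 genes 3 fell and 1 rose in PpargΔ/Δ kidney, 23 differed below 0 with a median of -0.101, and its mean was 11.37 to 11.53 on PpargΔ/Δ arrays and 11.56 to 11.73 on controls. In AZIP kidney 2 fell, 25 differed below 0, the median was -0.133, and the means were 11.49 to 11.65 and 11.75 to 11.85. The share of the list called was 14.8% in PpargΔ/Δ and 7.41% in AZIP kidney, beside 5.29% and 2.43% of all genes. The organic anion carrier Slc22a7 read 7.49, 7.73 and 7.13 on PpargΔ/Δ arrays and 8.71, 8.93 and 8.25 on controls (-1.18 ± 0.29, limma adjusted p = 0.0368), and fell by 1.37 on the log2 scale in AZIP kidney (limma adjusted p = 0.0324). Both Slc22a7 calls were lost with most single arrays left out (up to 0.123 and 0.13). The part of these tubule differences in the P450 results was not tested. Collecting duct markers ran the other way in PpargΔ/Δ kidney, with 5 of 13 called higher (38.5%, beside 2.67% of all genes) and a median of 0.218. In whole kidney, fewer cells of a type and less RNA per cell cannot be told apart. Hepatocyte markers, which could come from liver beside the kidney, had means of 6.69 to 6.88 and 6.71 to 6.90, with Alb at -0.48 (limma adjusted p = 0.218).

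In AZIP kidney 0 of 85 P450 genes passed in limma, against 2.43% of all genes tested (1.3% higher and 1.13% lower). At an unadjusted p under 0.05 there were 15, and the background there was 16.4%. The median was -0.013 (0.003 over all genes), and the range -0.64 to 0.82. Groups were separate for 19 P450 genes, 6 higher and 13 lower, beside 22.5% of all genes. Cyp2e1 was the lowest, at 11.13, 10.55 and 10.27 on AZIP arrays and 11.32, 11.25 and 11.29 on FVB controls. The AZIP pools spread widely but all lay below the controls, with a difference of -0.64 ± 0.16 (64.4% of control, 95% interval -0.97 to -0.30, limma adjusted p = 0.0565). It passed without AZIP array 1 (0.0026), but with another array left out adjusted p rose as high as 0.185. Cyp2j11 read 11.58, 11.49 and 11.21 against 11.86, 11.78 and 11.73, a difference of -0.36 ± 0.09 (limma adjusted p = 0.056). It also passed without AZIP array 1 (0.0278) and reached 0.201 with another array left out. With the replicate number as a block both passed (0.043 and 0.0156), as did Cyp1b1, at 9.51, 9.71 and 9.69 against 9.24, 9.43 and 9.45 (0.26 ± 0.08, limma adjusted p = 0.103 without the block and 0.0241 with it). With the block 4 P450 genes passed (3.48% of all genes), and without AZIP array 1 there were 5 (2.85% of all genes). Same-numbered AZIP and FVB control arrays did not deviate together (correlations -0.04, -0.10 and -0.01), so the calls under the block carry little weight.

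The genes called in PpargΔ/Δ kidney were then read in AZIP kidney, where other control arrays were used. All 10 differed with the same sign, and 6 had separate groups in that direction. Over all genes 22.5% had separate groups in AZIP kidney, 11% higher and 11.5% lower. That share covers all genes, not those called in PpargΔ/Δ kidney. How often other called genes agreed in sign or separation was not counted, so the agreement cannot be said to be particular to P450 genes. Cyp2j13 read 5.76, 6.54 and 5.91 against 5.62, 5.62 and 5.51 (0.49 ± 0.16, limma adjusted p = 0.127), where array 2 alone was far above the controls. It passed without AZIP array 1 (0.65, 0.047), but with another array left out adjusted p rose as high as 0.27. Cyp4a31 read 12.17, 11.76 and 12.16 against 12.25, 12.27 and 12.42 (-0.28 ± 0.10, limma adjusted p = 0.186), and Cyp4a10 and Cyp4a14 differed by -0.17 and -0.05 with overlapping groups. Cyp20a1 differed by 0.18 ± 0.06 (limma adjusted p = 0.119) and Cyp17a1 by 0.10 ± 0.10 (limma adjusted p = 0.67). For 4 of the 10 the 95% interval in AZIP kidney held the PpargΔ/Δ difference. A same sign without a call is no evidence that a gene changed in AZIP kidney.

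**Figure D3:**
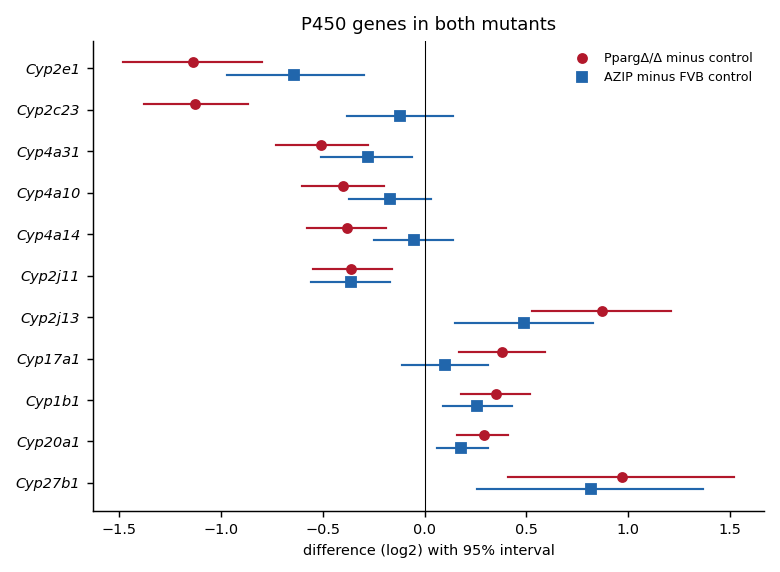
Difference in log2 signal with its 95% interval for 11 P450 genes, as PpargΔ/Δ minus control (circles) and AZIP minus FVB control (squares). Intervals of Cyp2c23 do not overlap (-1.38 to -0.87 and -0.38 to 0.14), while those of Cyp2j11 and Cyp27b1 nearly coincide.

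Whether an effect differed between the mutants was tested as the difference of the 2 effects. It passed for 0 of 85 P450 genes in limma, against 0.0201% of all genes, with 8 P450 genes at an unadjusted p under 0.05, where 5.82% of all genes stood. Cyp2c23 stood nearest. It read 7.86, 8.07 and 8.11 on AZIP arrays and 7.97, 8.19 and 8.24 on FVB controls, with overlapping groups and a difference of -0.12 ± 0.12 (95% interval -0.38 to 0.14). The difference of effects was -1.0 ± 0.17 (95% interval -1.37 to -0.64, limma adjusted p = 0.137). For Cyp2e1 the difference of effects was -0.51 ± 0.22 (95% interval -0.99 to -0.03, adjusted p = 0.849), for Cyp4a14 -0.33 ± 0.13 (adjusted p = 0.834) and for Cyp27b1 0.15 ± 0.36 (95% interval -0.64 to 0.93). The intervals of Cyp2c23, Cyp2e1 and Cyp4a14 lay below 0, but they are not adjusted for the 19938 genes tested, and none of these genes passed after that adjustment.

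Other P450 genes missed the threshold in AZIP kidney by a little more. Cyp4f14 differed by -0.27 ± 0.07 (limma adjusted p = 0.0662) and Cyp4f13 by -0.29 ± 0.08 (limma adjusted p = 0.0967), beside 0.05 and -0.11 in PpargΔ/Δ kidney. Cyp26b1, a retinoic acid hydroxylase, read 7.68, 7.53 and 7.68 on AZIP arrays and 7.47, 7.39 and 7.11 on FVB controls, a difference of 0.30 ± 0.09 (limma adjusted p = 0.0997), and its difference of effects was -0.43 ± 0.13 (adjusted p = 0.658). Cyp2f2, known from lung airway cells, differed by -0.26 in AZIP and -0.27 in PpargΔ/Δ kidney (limma adjusted p = 0.147 and 0.101).

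The 2 control groups differed in P450 genes too. FVB control minus C57BL6/SV129 control passed for 11 of 85 P450 genes (4 higher, 7 lower), against 7.22% of all genes (3.5% higher, 3.72% lower). These controls also serve the mutant comparisons, and strain, colony and the match of a probe to each strain's sequence cannot be told apart. Cyp2c23, whose control values are given above, was lower in FVB by 2.65 on the log2 scale, at 15.9% of the other control (limma adjusted p = 1.23e-07). Cyp2e1 differed by -1.04 ± 0.16 (limma adjusted p = 0.00174), so the FVB controls stood near the PpargΔ/Δ level. Cyp4a12b read 5.31, 5.71 and 5.44 on FVB controls and 7.03, 6.69 and 6.86 on the others (-1.38 ± 0.24, limma adjusted p = 0.00474). Cyp2d12 read 8.26, 8.50 and 8.22 against 6.64, 7.59 and 6.58 (1.39 ± 0.22, limma adjusted p = 0.00232).

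The other 7 were smaller. Among enzymes of oxysterol and cholesterol, Cyp39a1 read 8.09, 8.06 and 8.21 on FVB controls against 8.78, 8.72 and 8.68 and fell by 0.61 on the log2 scale, Cyp7b1 differed by -0.50, and Cyp46a1, the cholesterol hydroxylase of neurons, by 0.35. In the Cyp2d cluster Cyp2d22 read 11.17, 11.25 and 11.19 against 10.79, 10.71 and 10.61 (0.50), while Cyp2d37-ps differed by -0.65 and Cyp2d26 by -0.40. The latter call was lost without control array 1 or 2 or FVB array 1 or 3 (adjusted p up to 0.08). Cyp4f39 differed by 0.32. Both directions thus occurred within Cyp2d, where close copies may share probes. Of the 10 genes called in PpargΔ/Δ kidney, Cyp2c23 and Cyp2e1 were also called between controls.

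**Figure D4:**
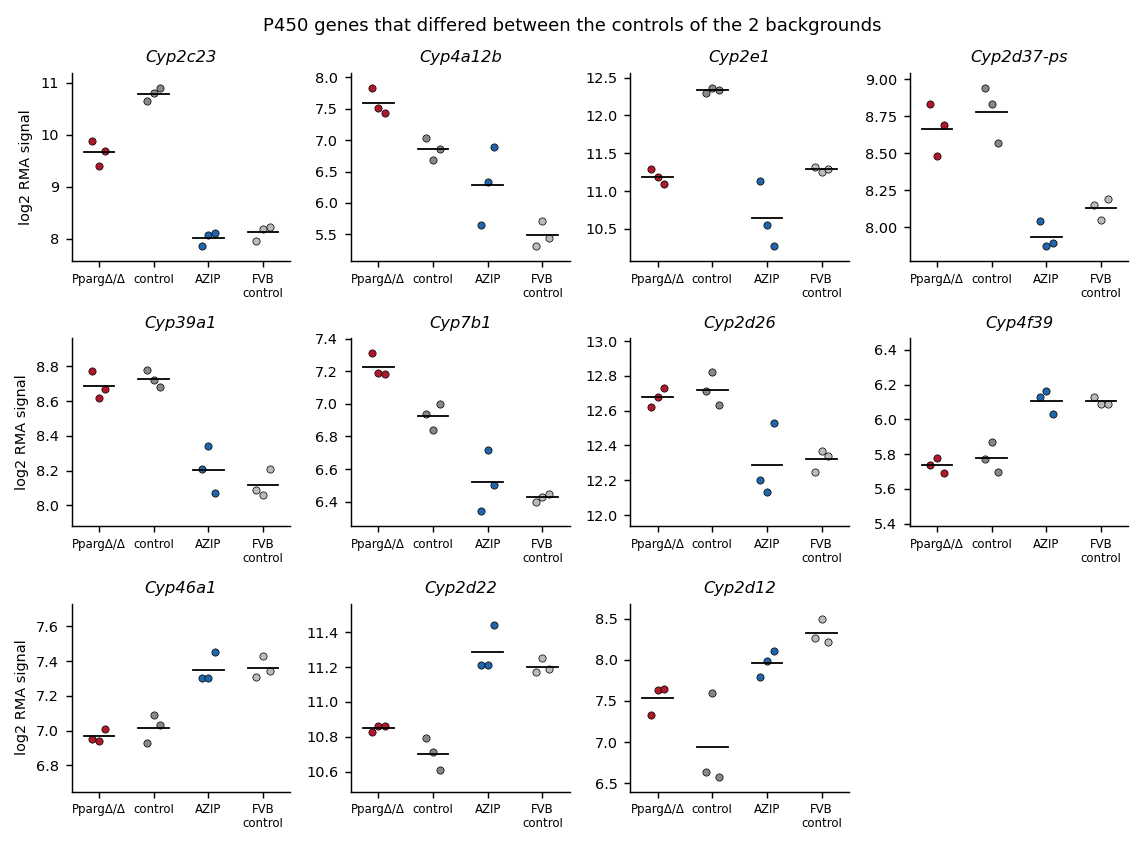
Log2 signal on each array (points) with group means (lines) for the 11 P450 genes that differed between the control groups. AZIP arrays lie near FVB controls and PpargΔ/Δ arrays near C57BL6/SV129 controls in most panels, whereas for Cyp2e1 the PpargΔ/Δ arrays (11.09 to 11.29) lie at the level of the FVB controls (11.25 to 11.32).

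P450 genes varied more between pools than genes at large, with a median within-group SD of 0.117 beside 0.088. Cyp4b1, which acts on fatty acids and on lung and kidney toxins, was the most variable (SD 0.52). It read 11.12, 9.79 and 9.52 on PpargΔ/Δ arrays, 10.72, 10.65 and 10.53 on controls, 10.45, 10.21 and 9.37 on AZIP arrays and 10.14, 10.41 and 10.32 on FVB controls. Mutant pools lay both above and below their controls, and neither difference passed (-0.49, limma adjusted p = 0.486, and -0.28, limma adjusted p = 0.771). Next were Cyp27b1 (0.37), Cyp4a12b (0.35), Cyp2d12 (0.32) and Cyp4a12a (0.31). Several mouse P450 genes are known to differ by sex. Xist read 12.18 to 12.34 on all 12 arrays, the Y-linked Kdm5d 4.43 to 4.85 and Uty 3.62 to 4.07, with no group apart.

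Genes that serve or control P450 enzymes were read from lists. Of 10 electron carriers and their kin 0 passed in either mutant, with Cyb5a, the cytochrome b5 of the endoplasmic reticulum, at -0.08 and -0.11. At an unadjusted p under 0.05 there were 1 and 4, beside 20.4% and 16.4% of all genes. Por is not analysed here. Of 14 heme synthesis genes 1 passed, in PpargΔ/Δ kidney (Cpox, 0.26 ± 0.06, limma adjusted p = 0.0324, up to 0.116 with an array left out), and Alas1, which sets the rate of heme synthesis in liver, differed by 0.22 (limma adjusted p = 0.158) and 0.21 (limma adjusted p = 0.239). The share of the heme list that passed was 7.14%, beside 5.29% of all genes.

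Of 35 regulators of P450 genes 8 passed in PpargΔ/Δ kidney, 7 of them lower, and 4 in AZIP kidney, 2 of them lower. These are 22.9% and 11.4% of the list, beside 5.29% and 2.43% of all genes. At an unadjusted p under 0.05 there were 13 and 24, beside 20.4% and 16.4% of all genes. Of the 35 regulators 24 and 26 differed below 0, with medians of -0.113 and -0.189 (-0.009 and 0.003 over all genes). Groups were separate for 48.6% and 62.9% of the list, beside 26.1% and 22.5% of all genes. Nr1i2, the xenobiotic receptor PXR, read 8.35, 8.24 and 8.15 on PpargΔ/Δ arrays and 8.79, 8.66 and 8.68 on controls (-0.46 ± 0.07, limma adjusted p = 0.0054), and -0.18 in AZIP kidney (limma adjusted p = 0.245). Ppara, the receptor that drives Cyp4a genes in fasting, read 10.47, 10.36 and 10.30 against 10.72, 10.67 and 10.65 (-0.30 ± 0.08, limma adjusted p = 0.0448, lost without any array but PpargΔ/Δ array 1, up to 0.141), and -0.27 in AZIP kidney (limma adjusted p = 0.0932). The PpargΔ/Δ pools of both genes lay below all their controls. Nr1i3, the receptor CAR, differed by 0.10 (limma adjusted p = 0.7) and 0.20 (limma adjusted p = 0.454).

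Regulators of the list with known daily rhythms, or of the C/EBP family, went in different directions. Nfil3, a repressor at sites shared with Dbp, read 8.66, 8.66 and 8.96 on PpargΔ/Δ arrays and 7.28, 7.46 and 7.42 on controls (1.37 ± 0.11, limma adjusted p = 0.000213). In AZIP kidney it read 8.12, 8.07 and 8.40 against 7.66, 7.36 and 7.52 (0.68 ± 0.11, limma adjusted p = 0.0128, 0.0551 without FVB array 2). Dbp, an activator at those sites, read 8.79, 8.94 and 8.34 against 10.13, 9.75 and 9.93 (-1.24 ± 0.19, limma adjusted p = 0.00456) and differed by -0.75 in AZIP kidney (limma adjusted p = 0.0594). Both genes are known to change with the hour of the day, which the labels do not give. Cebpa differed by -0.65 ± 0.13 (limma adjusted p = 0.0167, up to 0.0736 with PpargΔ/Δ array 2 or control array 1 left out) and by -0.72 ± 0.13 (limma adjusted p = 0.019, up to 0.0904 with AZIP array 2 or FVB array 1 or 2 left out). Its relative Cebpb differed by 0.03 in PpargΔ/Δ kidney and by 0.41 in AZIP kidney (limma adjusted p = 0.0439, lost without any 1 of the 6 arrays). Tef and Hlf, relatives of Dbp, differed by -0.39 (limma adjusted p = 0.022, lost without any array but PpargΔ/Δ array 1, up to 0.0879) and -0.12 in PpargΔ/Δ kidney and by -0.29 and -0.26 in AZIP kidney, where neither passed. The clock genes Nr1d1 and Rora did not pass either, at -0.39 (limma adjusted p = 0.363) and 0.03 in PpargΔ/Δ kidney. Tef, Hlf, Nr1d1 and Rora were named after their values were seen.

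Enzymes next to P450 in fatty acid and eicosanoid pathways were read in the same way. Of 15 partners of omega-oxidation, among them peroxisomal enzymes that shorten the fatty acids Cyp4a enzymes have oxidised, 7 passed in PpargΔ/Δ kidney, 6 of them lower, and 2 passed in AZIP kidney, both lower. The shares called were 46.7% and 13.3%, beside 5.29% and 2.43% of all genes. Acot4, a thioesterase of peroxisomes, read 9.84, 9.78 and 9.78 on PpargΔ/Δ arrays and 10.42, 10.34 and 10.27 on controls (-0.54 ± 0.06, limma adjusted p = 0.00164). It read 10.09, 9.91 and 10.16 on AZIP arrays and 10.61, 10.64 and 10.55 on FVB controls (-0.54 ± 0.06, limma adjusted p = 0.00429), and kept both calls with each array left out. Its close copy Acot3 differed by -1.02 ± 0.16 and -0.59. Of 24 eicosanoid genes outside P450, 4 fell in PpargΔ/Δ (16.7%) and 1 in AZIP kidney (4.17%), beside 2.62% and 1.13% of all genes. Ptgds, a prostaglandin D synthase, read 9.33, 9.51 and 9.64 on PpargΔ/Δ arrays and 10.2, 10.2 and 10.3 on controls (-0.74 ± 0.09, limma adjusted p = 0.00185). In AZIP kidney it stood the other way, at 9.32, 9.28 and 9.42 against 8.83, 9.14 and 9.12 (0.31 ± 0.09, limma adjusted p = 0.109). The groups were separate in both comparisons, and Ptgds was the sole gene of this list whose difference of effects passed (-1.05 ± 0.13, limma adjusted p = 0.0215, up to 0.0915 with an array left out). Ephx2, which hydrolyses the epoxides that Cyp2c and Cyp2j enzymes make, read 10.10, 9.91 and 9.80 against 10.55, 10.26 and 10.47 (-0.49 ± 0.11, limma adjusted p = 0.0276) and fell in AZIP kidney by 0.52 on the log2 scale (limma adjusted p = 0.036). Both Ephx2 calls were lost with most single arrays left out (up to 0.107 and 0.14).

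**Figure D5:**
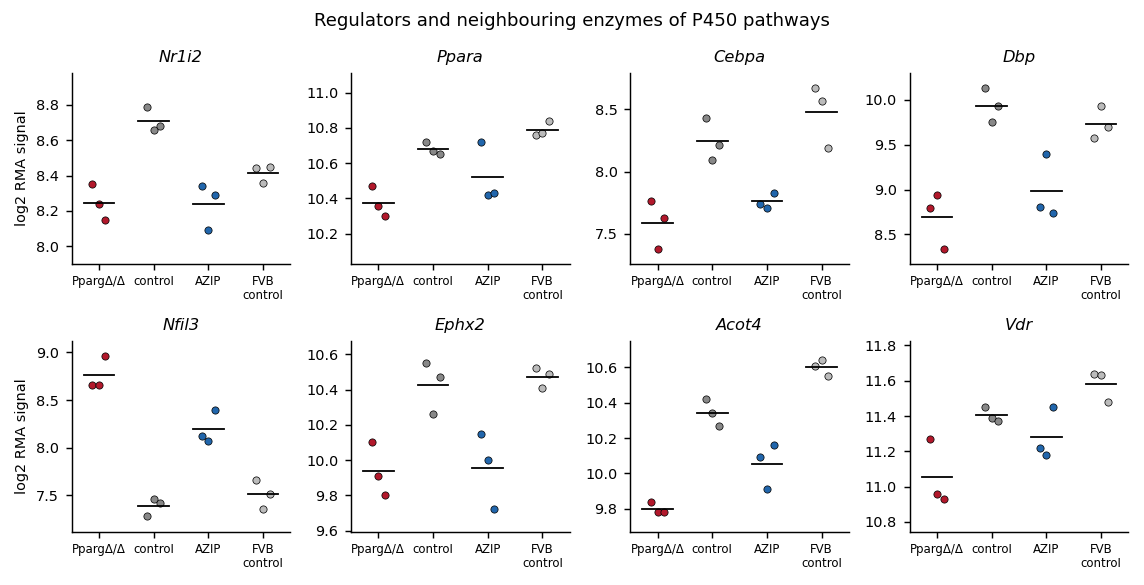
Log2 signal on each array (points) with group means (lines) for 5 regulators of P450 genes, for Ephx2 and Acot4, which act on the products of P450 pathways, and for Vdr. Acot4 is separate in both mutants (9.78 to 9.84 against 10.27 to 10.42, and 9.91 to 10.16 against 10.55 to 10.64), and Nfil3 is higher in both.

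Lists of other metabolic genes differed in direction. Most retinoid calls were higher, while most drug-metabolism genes differed below 0. Of 15 retinoid genes 3 rose and 1 fell in PpargΔ/Δ kidney and 4 rose in AZIP kidney (26.7% called in each). Among them Aldh1a1, a retinal dehydrogenase, differed by 0.38 (limma adjusted p = 0.0324, lost without any 1 of the 6 arrays) and 0.65 (limma adjusted p = 0.00719). Of 38 other drug-metabolism genes 3 rose and 5 fell in PpargΔ/Δ kidney (21.1% called), and 1 rose and 1 fell in AZIP kidney (5.26%). Among them Fmo4, a flavin monooxygenase, differed by -0.56 (limma adjusted p = 0.011, 0.0527 without control array 1) and -0.68 (limma adjusted p = 0.00947). Of the 38 drug-metabolism genes 24 differed below 0 in PpargΔ/Δ kidney and 28 in AZIP kidney, with medians of -0.073 and -0.076. Of all 19938 genes 10600 and 9755 differed below 0, with medians of -0.009 and 0.003. Over all genes 5.29% were called in PpargΔ/Δ kidney and 2.43% in AZIP kidney.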

How the data were processed

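RMA in Affymetrix Expression Console is the tool named in the submitters' processing notes, and the authors' deposited log2 values were taken without further scaling. Software versions, parameters and a genome build are not stated there. Of 35556 probe sets 21789 had 1 symbol, updated through Entrez numbers for 21698. A gene's probe set with the highest mean was kept. None of the 85 P450 genes had another, and 7 P450 probe sets with several symbols were left out. One limma model (version 3.58.1, R 4.3.3; lmFit, eBayes) held all 4 groups and 12 arrays. Benjamini-Hochberg adjustment ran over 19938 genes, with a threshold of 0.05. The fit and contrasts were tested on simulated data.

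Members and lists were chosen with earlier results of these data known. All P450 genes could be named, and from each list up to 4 called genes with the smallest p plus Pparg, Ppara, Nr1i2, Nr1i3, Por, Cyb5a, Alas1, Ephx2, Vdr, Alb, Star, Slc34a1 and Adipoq; part of these are printed. Between the control groups, arrays with the same replicate number deviated together (correlations 0.25, 0.18 and 0.13), so the number was also fitted as a replicate block, which kept 11 P450 calls and changed none. Alternatives covered scaling, filters, probe sets, the arrays fitted and the variance model.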

Additional observations from a re-analysis of the deposited data

Results flagged for a closer look

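Ptgds, an enzyme next to the P450 pathways, differed between the mutants: its difference of effects was -1.05 ± 0.13 (limma adjusted p = 0.0215), with all 3 PpargΔ/Δ pools below and all 3 AZIP pools above their controls. That call was lost with 7 of 12 arrays left out in turn (adjusted p up to 0.0915).

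Krt5, a keratin in the urothelium list, also differed between the mutants, at 1.63 ± 0.20 (limma adjusted p = 0.0215). It read 8.55, 8.32 and 8.95 on PpargΔ/Δ arrays and 6.86, 6.67 and 6.91 on controls, while AZIP and FVB control arrays overlapped. Neither is a P450 gene.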

How the results depend on the processing

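Calls in PpargΔ/Δ kidney numbered 10 to 12 under all settings that kept every array, and 3 to 9 with an array left out. Counts in AZIP kidney moved up from 0. They were 2 after quantile normalization again, with equal array medians, without genes under percentile 25, and with a variance trend, 3 without genes under percentile 50 and with array weights, and 0 to 5 with an array left out. Cyp2e1 and Cyp2j11 passed in each of these settings that kept every array. With probe sets averaged per gene, or with only AZIP and FVB arrays fitted, the count stayed 0. For the difference of the effects the count was 0 to 1 with an array left out. Between controls it was 19 with array weights and 10 to 12 with an array left out.

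Cyp27b1 passed in PpargΔ/Δ kidney under 7 settings that kept every array, among them quantile normalization again (adjusted p = 0.0454) and array weights (0.0151). With an array left out, values that changed sign ranged from -0.01 to 0.20 for Cyp17a1 and -0.15 to 0.06 for Cyp4a14 in AZIP kidney, and from -0.20 to 0.41 for the Cyp27b1 difference of effects. Of 842 gene values with every array kept, 0 reversed.

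With equal array medians the all-gene split in PpargΔ/Δ kidney was 436 higher and 694 lower (532 and 523 as deposited), and in AZIP kidney 203 and 326 (260 and 225). The P450 split stayed at 4 and 6. Same-numbered arrays correlated at 0.18, 0.18 and 0.01 in the PpargΔ/Δ comparison, where arrays of unlike number ran from -0.26 to 0.15. In the AZIP comparison same-numbered arrays correlated at -0.04, -0.10 and -0.01, so there they share only a number. The replicate block gave 10 and 4 P450 calls and ended the call of Ptgr2 in PpargΔ/Δ kidney (adjusted p = 0.0504). Dim probe sets limit what the 46 genes under percentile 25 can show.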
